A study of Mus musculus with 8 samples.

Results

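Trp53, the mouse gene of the transcription factor p53, and 9 of its target genes were followed in 8 mouse RNA-seq libraries. The 10 genes were taken by symbol from the 23389 gene symbols of each deposited table, and all 10 were present and passed the filter on low values that left 13200 genes for testing. The libraries form 4 groups of 2. The 3F+IL6 group is a pair of independently derived induced pluripotent stem (iPS) clones, reprogrammed from embryonic fibroblasts with Oct4, Klf4 and Sox2 and treated with IL6 at 10 ng/mL, on a BALB/c background. The 4F group is a pair of independently derived BALB/c iPS clones made with 4 factors, for which no IL6 treatment is labelled. The ES group holds biological duplicates of D3-GFP embryonic stem cells of the 129S2/SvPas background, and the MEF group holds biological duplicates of BALB/c mouse embryonic fibroblasts. Each iPS library is a single clone, and strain and cell type change together in any comparison with ES cells. The samples are bulk cultures, so fewer cells of a type and less RNA per cell cannot be told apart.

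As background, p53 is kept low by the ubiquitin ligase Mdm2, itself the product of a p53 target gene, and is stabilised when DNA is damaged or an oncogene is active. The protein then binds DNA as a tetramer and raises genes that stop the cell cycle, such as Cdkn1a, and genes that drive apoptosis, such as Pmaip1 and Bbc3. The pathway is known as a barrier to reprogramming, and pluripotent cells are known for abundant Trp53 transcript with low p21 protein.

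Promoter sequences of 7 of the 10 genes were matched in RefSeq (GRCm38.p6, the build the submitters call mm10). They lie around annotated transcription starts, mostly upstream of them, and gave 10 windows of 300 bases. Each window was searched for its best match to the p53 response element consensus, which consists of 2 adjoining repeats of 10 bases and reads the same on both strands. Matches are shown here because they are the sequence feature by which p53 finds its targets. Each line gives a stretch of 60 bases on the strand of the gene, 5′ to 3′, with the best 20-base match in capitals.
Cdkn1a, chr17:29090908-29090967, plus strand: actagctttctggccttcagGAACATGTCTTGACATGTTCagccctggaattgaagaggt
Ccng1, chr11:40755442-40755501, minus strand: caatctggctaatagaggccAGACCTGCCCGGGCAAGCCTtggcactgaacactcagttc
Bbc3, chr7:16309466-16309525, plus strand: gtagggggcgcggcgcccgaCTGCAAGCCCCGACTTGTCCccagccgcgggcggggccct
Bax, chr7:45467070-45467129, minus strand: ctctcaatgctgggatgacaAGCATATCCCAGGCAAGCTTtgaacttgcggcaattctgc
Trp53, chr11:69580264-69580323, plus strand: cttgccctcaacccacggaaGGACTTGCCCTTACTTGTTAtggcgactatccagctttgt

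The Cdkn1a and Ccng1 matches kept 19 of the 20 consensus positions. Of 27025 genes with such windows, 0.107% had a match at least as close. The Cdkn1a match lay at −51 to −32 relative to the first of its 2 listed starts, and the Ccng1 match at −195 to −176. At the second Cdkn1a start the best match kept 15 positions. Bbc3 (−97 to −78), Bax (−211 to −192) and Trp53 (−75 to −56) kept 17 positions, a closeness that 7.2% of genes reached. The Bbc3 match is that of the first of its 3 listed starts, and those of the others kept 15 and 14 positions. The best matches of Mdm2 and Sesn2 kept 15 positions, which 79.2% of genes reached. A match is a string of letters and not a measured binding event, and a distant or intronic element would not be in these windows. Pmaip1, Trp53inp1 and Perp are described by their values only.

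The values are RPKM, that is, reads scaled to gene length and library size. Depth was estimated at 11760000 to 18040000 reads per library. The pluripotency markers, 10 genes including Pou5f1, summed to 5105 to 6301 RPKM in the ES and iPS libraries and to 6.92 and 8.78 in MEF. Nanog was at 252 and 245 in ES cells and 131 to 181 in the clones. Zfp42 and Esrrb were also lower in every clone. Fgf4 was higher, at 32.9 and 32.4 in ES cells and 89.4 to 96.3 in the clones. By the limma calls defined below, 3 of the 10 were higher and 3 lower in 3F+IL6 than in ES cells. In 4F, 2 were higher and 3 lower. Of all genes, 33.1% were higher and 30.3% lower in 3F+IL6, and 33.7% and 33.5% in 4F. The fibroblast markers, 18 genes, summed to 5379 and 5432 in MEF, 16.3 and 16.4 in ES cells, 289 and 436 for 3F+IL6, and 271 and 238 for 4F. All 4 clones had 17 of these at 1 RPKM or more and none at 0, while ES cells had 5, and Fap was at 0 in both ES libraries. The epithelial markers, 10 genes, summed to 498 to 570 in the clones, 171 to 174 in ES cells and 7.55 to 8 in MEF. Of the blood and endothelial markers, Lyz2 was at 16.2 to 28.7 in the clones, 0 in ES cells and 3.05 and 3.29 in MEF, while Ptprc stayed under 0.06 in every library. Only 4 of these 8 markers were tested, and they did not move together. Lyz2 and Cd68 were called higher than in ES cells for both kinds of clone. Kdr was called lower for both (−0.27 in 3F+IL6 and −0.30 in 4F), at low values. Pecam1 was called lower for 3F+IL6 (−0.52) and was not called for 4F. The median difference on the log2 scale between replicates was 0.182 for 3F+IL6, 0.102 for 4F, 0.0562 for ES and 0.0496 for MEF, so the 3F+IL6 clones were the least alike. Tests used limma on log2(RPKM + 1) across all 8 libraries, and a gene is called where the Benjamini-Hochberg adjusted p over the 13200 genes is under 0.05. Calls are common here. Between 3F+IL6 and ES cells 63.4% of all genes were called, between 4F and ES cells 67.2%, and between MEF and ES cells 81.7%. For 3F+IL6 and 4F against MEF the shares were 82.1% and 83.6%. Between the kinds of clone 1.34% were called. The comparisons share groups, so they are not independent of each other.

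Relative to ES cells, 7 of the 10 genes rose in 3F+IL6 clones and 7 rose in 4F clones, where 33.1% and 33.7% of all genes rose. In both kinds of clone Cdkn1a, Pmaip1, Bbc3, Bax, Ccng1 and Trp53inp1 rose and Trp53 itself fell. The median log2 difference of the 10 genes was 0.68 for 3F+IL6 and 0.73 for 4F, beside 0.01 and 0.00 over all genes tested. Relative to MEF, 7 rose and 3 fell in each kind of clone, with medians of 1.31 and 1.13 beside 0.26 and 0.25 over all genes. There 49.4% (3F+IL6) and 49.2% (4F) of all genes rose, and 32.6% and 34.4% fell. From ES cells to MEF, 4 of the 10 genes rose (Mdm2, Cdkn1a, Bax and Ccng1) and 6 fell, where 32% of all genes rose and 49.7% fell.

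**Figure D1:**
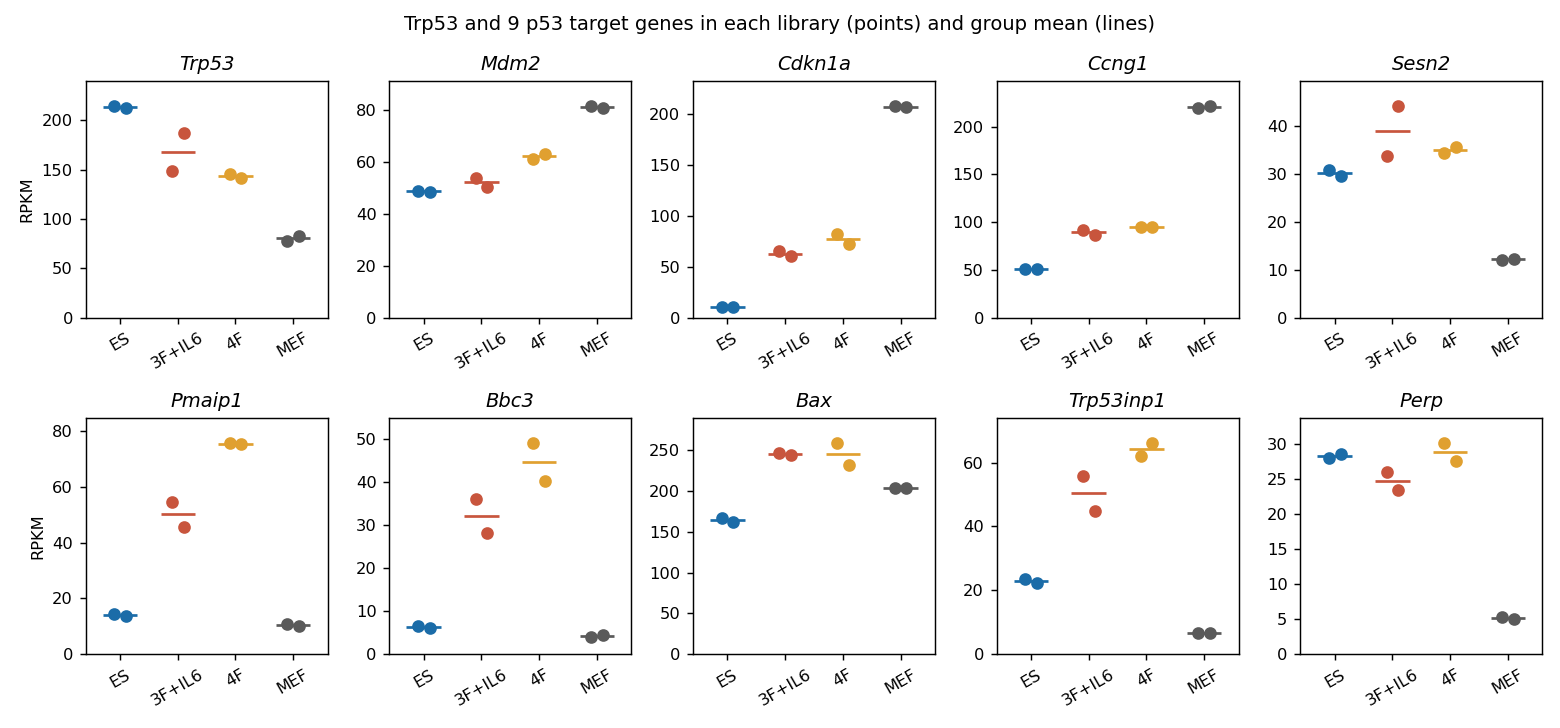
RPKM of Trp53 and 9 p53 target genes in each library (points, 2 per group) with the group mean (line), on linear axes that start at 0. Trp53 falls from ES cells to MEF, Cdkn1a, Ccng1 and Mdm2 are highest in MEF, and Pmaip1, Bbc3 and Trp53inp1 are highest in the iPS clones.

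Trp53 (chromosome 11, 69580359 to 69591873, plus strand) encodes p53. Its level was 214 and 213 RPKM in ES cells, 149 and 188 in 3F+IL6 clones 1 and 2, 145 and 141 in 4F clones, and 78.1 and 83.1 in MEF. All 4 clones lay between the ES and the MEF libraries, and the 3F+IL6 clones differed from each other more than any other pair. The mean was 213 ± 1.13 (SD, n = 2) in ES cells, 168 ± 27.4 in 3F+IL6, 143 ± 2.93 in 4F and 80.6 ± 3.52 in MEF. By limma, Trp53 fell by 0.57 on the log2 scale from ES cells to 4F clones (SE 0.10, adjusted p = 0.0021). It fell by 0.35 from ES cells to 3F+IL6 clones (adjusted p = 0.019), a call lost when those 4 libraries were fitted alone (adjusted p = 0.073), after subtraction of a fibroblast share (−0.28, adjusted p = 0.072) and without either ES library (adjusted p = 0.08 and 0.074). Without 3F+IL6 clone 1 the difference was −0.18, and without clone 2 it was −0.52. From ES cells to MEF it fell by 1.39 (limma adjusted p = 9.3e-06). High Trp53 transcript thus stood beside low Cdkn1a in ES cells, and the order was the opposite in MEF.

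Mdm2 (chromosome 10, 117688875 to 117710758, minus strand), the ligase that marks p53 for degradation, was at 48.8 and 48.2 RPKM in ES cells, 53.6 and 50.3 in 3F+IL6 clones, 61 and 62.9 in 4F clones, and 81.2 and 80.5 in MEF. The 4 groups did not overlap, and their order was ES, 3F+IL6, 4F and MEF. By limma, Mdm2 rose by 0.35 from ES to 4F (SE 0.05, adjusted p = 0.00095) and by 0.72 from ES to MEF (adjusted p = 8.6e-06). Its difference of 0.10 between 3F+IL6 and ES was not called (limma adjusted p = 0.14), but was with quantile normalization (0.18) and without 3F+IL6 clone 2 (0.14). Mdm2 therefore spanned a 1.67-fold range between the ES and MEF means, against 19.7-fold for Cdkn1a.

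Of the genes of growth arrest and stress control, Cdkn1a (chromosome 17, 29090976 to 29100727, plus strand) encodes p21, an inhibitor of cyclin-dependent kinases. It was at 10.6 and 10.5 RPKM in ES cells, 65.3 and 60.7 in 3F+IL6 clones, 82.5 and 72.5 in 4F clones, and 207.97 and 207.74 in MEF. No groups overlapped, and the lowest clone was 5.7-fold above the highest ES library. By limma, the log2 difference from ES cells was 2.47 for 3F+IL6 (SE 0.07, adjusted p = 2.2e-06) and 2.76 for 4F (adjusted p = 1.9e-06), while the differences from MEF were −1.71 and −1.42. Of its exonic bases 7.68% are shared with AC167363.2 on the opposite strand, and reads from the pair are not separated here.

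Ccng1 (chromosome 11, 40748552 to 40755311, minus strand) encodes cyclin G1, which binds the phosphatase that acts on Mdm2. It was at 51.5 and 51 RPKM in ES cells, 92.3 and 86.8 in 3F+IL6 clones, 94.7 and 95.3 in 4F clones, and 219.5 and 221 in MEF. The order of the groups was that of Cdkn1a and the replicates lay close together. By limma, Ccng1 rose by 0.79 (SE 0.05, adjusted p = 2e-05) and 0.88 (adjusted p = 1.4e-05) from ES cells to 3F+IL6 and 4F, and by 2.08 from ES cells to MEF (adjusted p = 4.9e-08). Among the members with promoter windows, Cdkn1a and Ccng1 had the closest matches. Mdm2 had the same order of groups with a match of only 15 positions. A link between match and level was not tested.

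Sesn2 (chromosome 4, 132492032 to 132510501, minus strand) encodes sestrin 2, a stress protein that restrains mTORC1 and that p53 shares with other stress pathways. It was at 30.7 and 29.4 RPKM in ES cells, 33.6 and 44 in 3F+IL6 clones, 34.4 and 35.5 in 4F clones, and 12.1 and 12.3 in MEF. The clones were all above the ES libraries, 3F+IL6 clone 2 by the widest margin, and MEF were far below. By limma, the difference between 3F+IL6 and ES of 0.35 was called (SE 0.12, adjusted p = 0.034), a call lost with no filter (adjusted p = 0.054), with those 4 libraries fitted alone (0.11) and when any one library of ES (0.092 and 0.14), 4F (0.058 and 0.058) or MEF (0.055 and 0.055) was dropped. Without 3F+IL6 clone 1 the difference was 0.54, and without clone 2 it was 0.16. The difference between 4F and ES of 0.21 was not called (adjusted p = 0.14), but was with those 4 libraries fitted alone (adjusted p = 0.012), with quantile normalization (0.30) and without either 3F+IL6 clone. From ES cells to MEF Sesn2 fell by 1.23 (limma adjusted p = 3.9e-05).

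Of the genes of apoptosis, Pmaip1 (chromosome 18, 66458533 to 66465565, plus strand) encodes Noxa, a BH3-only protein that neutralises Mcl1. It was at 14.4 and 13.6 RPKM in ES cells, 54.7 and 45.5 in 3F+IL6 clones, 75.6 and 75.2 in 4F clones, and 10.8 and 10.3 in MEF. Every clone was above every reference library, the lowest clone being 3.17-fold above the highest of them. By limma, the difference from ES cells was 1.76 for 3F+IL6 (SE 0.09, adjusted p = 1.2e-05) and 2.35 for 4F (adjusted p = 4.4e-06), and from MEF 2.14 and 2.73.

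Bbc3 (chromosome 7, 16308393 to 16318205, plus strand) encodes Puma, a BH3-only protein that binds the anti-apoptotic Bcl2 relatives. It was at 6.64 and 6.23 RPKM in ES cells, 36.2 and 28.3 in 3F+IL6 clones, 49.1 and 40.4 in 4F clones, and 4.05 and 4.43 in MEF. The lowest clone was 4.26-fold above the highest reference library. By limma, the difference from ES cells was 2.15 for 3F+IL6 (SE 0.14, adjusted p = 2.6e-05) and 2.62 for 4F (adjusted p = 1.3e-05), and from MEF 2.65 and 3.12. The MEF value was lower than that of ES cells by limma (−0.50, adjusted p = 0.011), a call lost without ES 1 (adjusted p = 0.057) or MEF 1 (0.059).

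Trp53inp1 (chromosome 4, 11156431 to 11174379, plus strand) encodes a nuclear stress protein that works with p53 in cell cycle arrest and apoptosis. It was at 23.5 and 22.3 RPKM in ES cells, 55.9 and 44.8 in 3F+IL6 clones, 62.2 and 66.1 in 4F clones, and 6.83 and 6.61 in MEF. It was again highest in the clones, and the ES libraries were well above MEF. By limma, the difference from ES cells was 1.09 for 3F+IL6 (SE 0.10, adjusted p = 0.00014) and 1.44 for 4F (adjusted p = 4.3e-05), and from MEF 2.73 and 3.08.

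Bax (chromosome 7, 45461697 to 45466898, minus strand) encodes the effector that permeabilises the outer mitochondrial membrane. It was at 166 and 162 RPKM in ES cells, 246 and 244 in 3F+IL6 clones, 259 and 231 in 4F clones, and 204 and 203 in MEF. The clones were highest here too, but the range was narrow. By limma, the difference from ES cells was 0.57 in both kinds of clone (SE 0.06, adjusted p = 0.00018 for 3F+IL6 and 0.00017 for 4F). Those from MEF were 0.27 for 3F+IL6 and 0.26 for 4F, and the first was not called with median centring (0.15, adjusted p = 0.072). Of its exonic bases 12.2% are shared with Gm45808 on the same strand.

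Perp (chromosome 10, 18845020 to 18857073, plus strand) encodes a membrane protein of desmosomes that p53 and its relative p63 raise. It was at 27.9 and 28.6 RPKM in ES cells, 26 and 23.4 in 3F+IL6 clones, 30.1 and 27.6 in 4F clones, and 5.28 and 4.99 in MEF. The ES and iPS libraries lay close together and far above MEF. The differences from ES cells of −0.19 for 3F+IL6 (SE 0.08, limma adjusted p = 0.068) and 0.03 for 4F (adjusted p = 0.77) were not called, but the first was without 3F+IL6 clone 1 (−0.26, adjusted p = 0.017). From ES cells to MEF Perp fell by 2.25 (limma adjusted p = 2.7e-07).

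**Figure D2:**
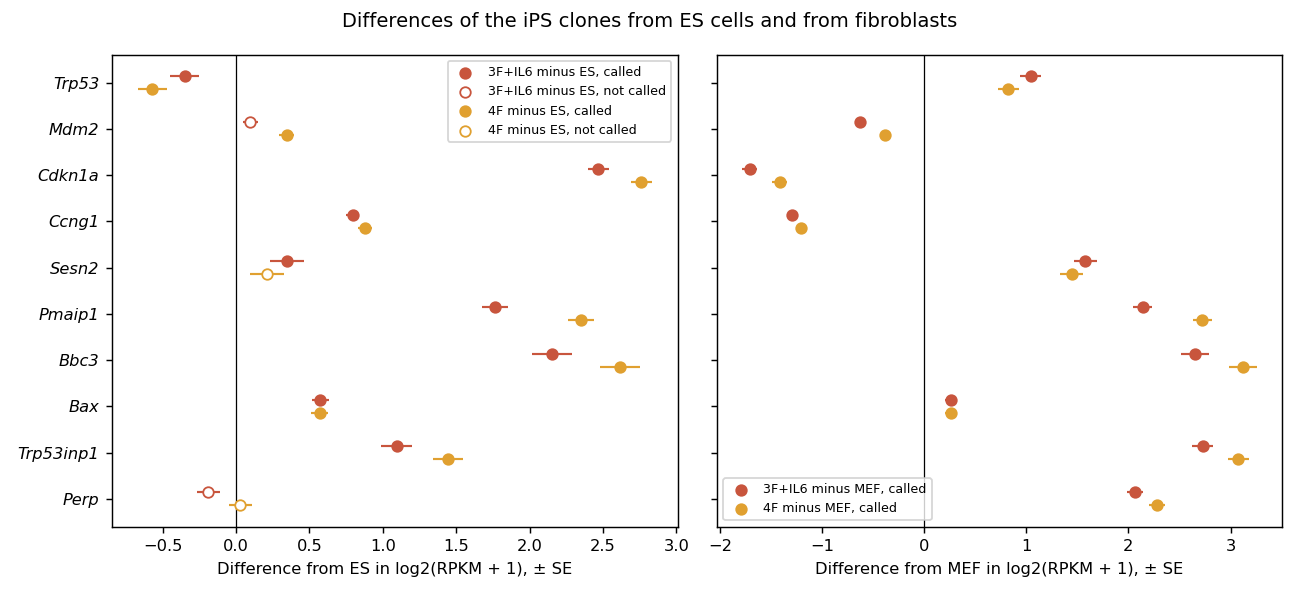
Differences of 3F+IL6 and 4F clones from ES cells (left) and from MEF (right) in log2(RPKM + 1), with the SE of limma as bars; filled points were called and open points were not. Cdkn1a, Ccng1 and Mdm2 are to the left of 0 against MEF, while Pmaip1, Bbc3 and Trp53inp1 are at least 1 to the right of 0 on both sides.

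Pmaip1, Bbc3, Trp53inp1 and Bax were called higher in both kinds of clone than in both ES cells and MEF. That is 4 of 10, where 17.8% of all genes tested were. For Pmaip1, Bbc3 and Trp53inp1 all 4 differences were at least 1 on the log2 scale, as for 4.36% of all genes. Cdkn1a, Ccng1 and Mdm2 lay between ES cells and MEF in every clone. Most fibroblast markers were also higher in the clones than in ES cells. In each kind of clone 16 of the 18 were called higher (88.9%), beside 33.1% and 33.7% of all genes. Twist1 was called lower (−0.45 in 3F+IL6 and −0.26 in 4F). Relative to MEF, Dcn and Lum were called higher in 3F+IL6 (0.65 and 0.81), and 16 of the 18 were called lower there (88.9%, beside 32.6% of all genes). To give the size of that signal beside these genes, a share was estimated for each clone as the median, over 16 fibroblast markers, of its value relative to the MEF mean. The share was 7.05% and 10.3% for the 3F+IL6 pair and 6.79% and 5.9% for the 4F pair, beside 0.212% and 0.139% in ES cells. Single markers gave from 2.14% to 195% in the clones, so the share is rough.

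At these shares, fibroblasts would carry 14.7 and 21.3 of the 65.3 and 60.7 RPKM of Cdkn1a in the 3F+IL6 clones, and 14.1 and 12.3 of the 82.5 and 72.5 RPKM in the 4F clones. For Ccng1 they would carry 13.7% to 26.1% of the value in a clone, and for Mdm2 7.59% to 16.5%. For Pmaip1, Bbc3 and Trp53inp1 they would carry at most 2.38%. After subtraction of the share, the Cdkn1a difference from ES cells was 2.15 for 3F+IL6 and 2.63 for 4F by limma (adjusted p = 2.8e-05 and 1.4e-05), and the Ccng1 difference was 0.58 and 0.75 (adjusted p = 0.00064 and 0.00022). Both remained called.

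**Figure D3:**
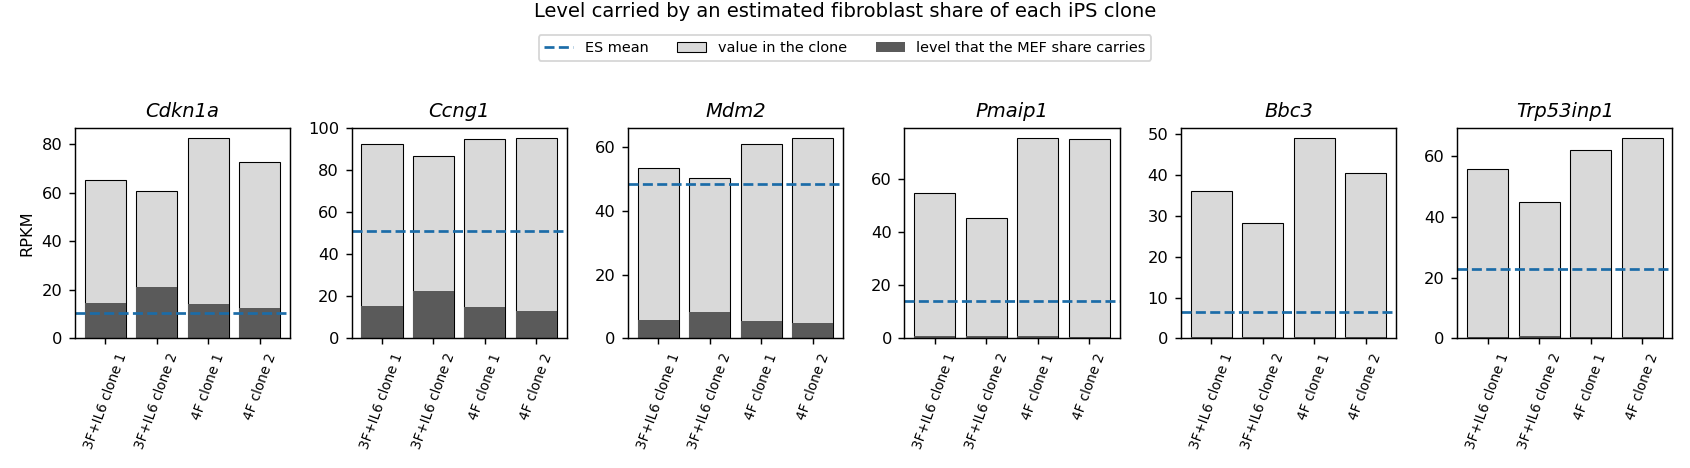
RPKM of 6 genes in each iPS clone (light bars), the part that the estimated fibroblast share would carry (dark bars) and the ES mean (dashed line), on axes that start at 0. At this share the dark part exceeds the ES mean for Cdkn1a and is under the value of the clone. It is close to 0 for Pmaip1, Bbc3 and Trp53inp1.

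Between the kinds of clone, Pmaip1 was the only one of the 10 genes called. It was lower in 3F+IL6, with means of 50.1 ± 6.48 against 75.4 ± 0.331 RPKM (SD, n = 2), and the difference was −0.59 on the log2 scale by limma (SE 0.09, adjusted p = 0.043). The call was lost with a pseudocount of 0.1 (adjusted p = 0.055), with no filter (0.056), with the replicate number as a block (0.052), with the 4 clones fitted alone (0.37) and when any one library of ES, 4F or MEF was dropped (0.12 to 0.19). By limma, 3198 of all 13200 genes had an unadjusted p under 0.05 here. Among them, Bbc3 (−0.47), Trp53inp1 (−0.35), Cdkn1a (−0.29), Mdm2 (−0.25) and Perp (−0.22) had adjusted p-values of 0.065 to 0.16. Their libraries did not overlap, nor did those of Ccng1 (−0.09). In all, 7 of the 10 genes had both 3F+IL6 clones below both 4F clones, where 20% of all genes did, and Trp53 had both above (0.22, limma adjusted p = 0.23), where 26.7% did. Within the 3F+IL6 pair, clone 2 had 1.26-fold more Trp53 and 1.31-fold more Sesn2 than clone 1, while clone 1 had 1.2-fold more Pmaip1, 1.28-fold more Bbc3 and 1.25-fold more Trp53inp1. Clone 2 also had the higher sum of fibroblast markers, and its part in these gaps was not tested. Without clone 2 the differences between the kinds of clone were −0.29 for Bbc3, −0.19 for Trp53inp1, −0.14 for Perp, −0.04 for Ccng1 and 0.05 for Trp53. Without clone 1 they were −0.64, −0.51, −0.29, −0.13 and 0.39 in the same order. With a 3F+IL6 clone dropped, the pair no longer adds its spread to the error, so genes that become called in such fits are no support.

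A further list of 36 known p53 targets gave a wider view, and 35 were tested. Of these, 25 rose and 3 fell in 3F+IL6 relative to ES cells, and 27 rose and 3 fell in 4F. The median differences were 0.68 and 0.80. Of all genes, 33.1% rose and 30.3% fell in 3F+IL6, and 33.7% rose and 33.5% fell in 4F. Leaving out any single library gave 22 to 27 risen genes for 3F+IL6 and 24 to 29 for 4F. In both kinds of clone Plk3, Wrap53 and Tigar were the 3 that fell. Wrap53 lies next to Trp53 on the opposite strand and was at 18.6 and 18.2 RPKM in ES cells, 12 and 14.1 in 3F+IL6 clones, 11.4 and 11.1 in 4F clones, and 5.82 and 7.32 in MEF, an order close to that of Trp53. The smallest p-values among the risen genes were those of the epoxide hydrolase gene Ephx1, the dicarbonyl reductase gene Dcxr, the polo-like kinase gene Plk2 and, in 3F+IL6, the mTORC1 inhibitor gene Ddit4. Ephx1 was at 1.34 and 1.45 RPKM in ES cells, 36.1 and 32.1 in 3F+IL6 clones, 51.5 and 45 in 4F clones, and 53 and 54.3 in MEF. Ddit4 was at 7.63 and 6.95 in ES cells, 339 and 146 in 3F+IL6 clones, 278 and 254 in 4F clones, and 13.7 and 13.7 in MEF. Ddit4 thus stood far above both references, whereas Ephx1 in the clones was below MEF, and the 3F+IL6 clones differed widely in Ddit4. Btg2, an antiproliferative gene among the leading 4 in 4F, was at 7.9 and 7.45 in ES cells, 28.7 and 22.3 in 3F+IL6 clones, 39.7 and 35.8 in 4F clones, and 18.1 and 16.9 in MEF.

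**Figure D4:**
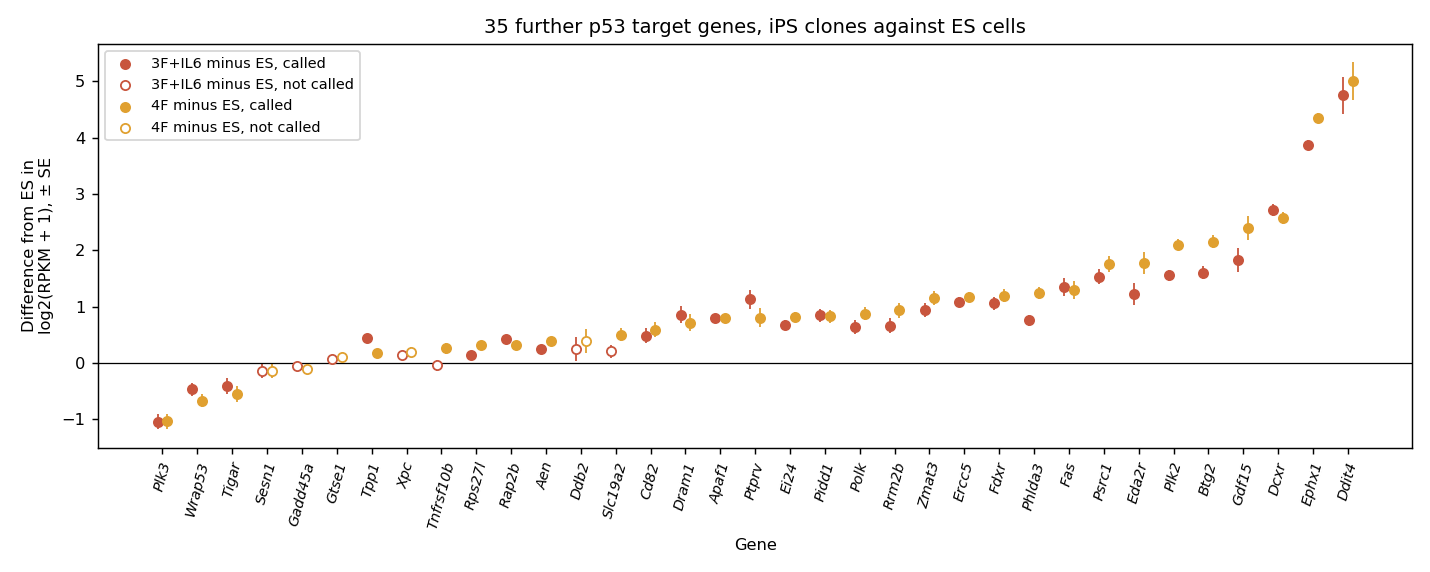
Differences of 3F+IL6 and 4F clones from ES cells in log2(RPKM + 1) for the 35 further p53 targets tested, with the SE of limma as bars; filled points were called and open points were not. The genes are sorted by the 4F difference, from Plk3 at the left, where both kinds of clone are lower, to Ddit4 at the right with 4.75 and 5.01.

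Of the 35 further targets, 14 were called higher in both kinds of clone than in both ES cells and MEF, which is 40% where 17.8% of all genes were. Relative to MEF 22 rose in each kind of clone (62.9%), while 11 fell in 3F+IL6 (31.4%) and 10 in 4F (28.6%). Of all genes, 49.4% and 49.2% rose there, and 32.6% and 34.4% fell. Gadd45a, a growth arrest gene, rose by 3.22 in 3F+IL6 and was at 4.17 and 4.27 RPKM in MEF against 44.6 to 50.8 in all ES and iPS libraries. Plk2 fell by 2.09 in 3F+IL6 relative to MEF. Between the kinds of clone limma called 0 of the 35. An unadjusted p under 0.05 by limma was reached by 10 of them, and by 3198 of all 13200 genes. Both 3F+IL6 clones were below both 4F clones for 16 and above them for 5, where 20% and 26.7% of all genes were.

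Of 26 regulators of p53, limma called 9 higher and 6 lower in 3F+IL6 than in ES cells, and 10 higher and 7 lower in 4F, with medians of 0.03 and 0.09. The higher calls are 34.6% and 38.5% of the list, where 33.1% and 33.7% of all genes were higher, so these shares were near the background. The lower calls are 23.1% and 26.9% of the list, where 30.3% and 33.5% of all genes were lower. Mdm4, the relative of Mdm2 that blocks the activation domain of p53, was at 11.2 and 10.8 RPKM in ES cells, 22.9 and 19.7 in 3F+IL6 clones, 28.8 and 34 in 4F clones, and 8.77 and 9.11 in MEF. By limma, it rose by 0.90 in 3F+IL6 (adjusted p = 0.00032) and by 1.44 in 4F (adjusted p = 4.2e-05) relative to ES cells. Cdkn2a, whose transcripts encode the Mdm2 inhibitor Arf and the kinase inhibitor p16, was at 11.7 and 12.2 in ES cells, 32.9 and 40.7 in 3F+IL6 clones, 44.9 and 39 in 4F clones, and 18.9 and 21.2 in MEF. It rose by 1.54 and 1.73 in the clones, and the values do not separate its transcripts. The checkpoint kinase gene Chek2 rose by 1.25 in 3F+IL6 and 1.3 in 4F, from 12.2 and 11.2 in ES cells to between 28.9 and 31.3 in the clones, and was at 2.98 and 2.14 in MEF. These 3 are among 6 of the 26 regulators (23.1%) that were called higher in both kinds of clone than in both ES cells and MEF, where 17.8% of all genes were. Ppm1d, the phosphatase gene that reverses p53 phosphorylation, fell by 0.60 in 3F+IL6 and by 1.04 in 4F, and the acetyltransferase gene Ep300 fell by 0.56 and 0.71. Relative to MEF, 18 of the 26 rose in 3F+IL6 (69.2%) and 17 in 4F (65.4%), and 4 fell in each (15.4%). Of all genes, 49.4% and 49.2% rose there, and 32.6% and 34.4% fell. Between the kinds of clone limma called 0 of the 26, with 6 at an unadjusted p under 0.05, where 3198 of all 13200 genes were. Of the relatives of Trp53, Trp63 stayed at or under 0.07 RPKM in every library and was not tested. Trp73 was at 0.23 and 0.21 in ES cells, 1.8 and 1.23 in 3F+IL6 clones, 1.96 and 1.41 in 4F clones, and at most 0.01 in MEF.

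Among 17 tested genes of the Bcl2 family and caspases, 5 rose and 3 fell in 3F+IL6 relative to ES cells, and 8 rose and 3 fell in 4F, with medians of 0.06 and 0.13. The risen genes are 29.4% and 47.1% of the list, beside 33.1% and 33.7% of all genes. The fallen genes are 17.6% in each kind of clone, beside 30.3% and 33.5% of all genes. Bcl2l1, which encodes the anti-apoptotic protein Bcl-xL, fell by 0.87 in 3F+IL6 and by 0.77 in 4F, from 35.1 in both ES libraries to 18 to 20.7 in the clones. The BH3-only gene Bmf rose by 1.06 and 1.01, and Bcl2l11, the gene of Bim, by 0.84 and 0.62. Hrk, another BH3-only gene, was lower in 3F+IL6 than in 4F (−0.65, limma adjusted p = 0.04) at low levels of 0.742 and 0.983 against 1.85 and 1.97 RPKM. It was the only gene of the 17 called between the kinds of clone (5.88%), where 1.34% of all genes were. Over all genes, such calls went from 177 to 12 with the 4 clones fitted alone. Whether the Hrk call holds under the alternatives is not reported here.

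Of 15 cell cycle genes that are known to be lowered through p21, 7 rose and 2 fell in 3F+IL6 relative to ES cells, and 8 rose and 1 fell in 4F, with medians of 0.31 and 0.30. The risen genes are 46.7% and 53.3% of the list, beside 33.1% and 33.7% of all genes. The fallen genes are 13.3% and 6.67%, beside 30.3% and 33.5% of all genes. Cdk1, the mitotic kinase gene, was at 42 and 40.7 RPKM in ES cells, 73.5 and 68.4 in 3F+IL6 clones, 72.3 and 72.1 in 4F clones, and 40.1 and 42.4 in MEF. Mybl2, a transcription factor gene of cycling cells, rose by 0.46 and 0.67 and was at 10.6 and 11.1 RPKM in MEF against 177 to 286 elsewhere. Relative to MEF all 15 rose in both kinds of clone, where 49.4% (3F+IL6) and 49.2% (4F) of all genes rose. Of the 6 other inhibitors of the CIP/KIP and INK4 families, 4 rose in 3F+IL6 and 5 in 4F relative to ES cells (66.7% and 83.3%, beside 33.1% and 33.7% of all genes), led by Cdkn1c (2.81 and 2.46).

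Among 8 relatives of the target genes, Sesn3 rose by 1.18 and 1.11 in the clones relative to ES cells, Ccng2 by 2.92 and 3.06 and the membrane protein gene Emp3 by 2.02 and 1.56. In all, 5 of the 8 rose in 3F+IL6 and 4 in 4F (62.5% and 50%, beside 33.1% and 33.7% of all genes), and 1, Emp1, fell in 4F. Ccng2, the gene of cyclin G2, was at 2.25 and 1.75 RPKM in ES cells, 35.9 and 12.8 in 3F+IL6 clones, 23.3 and 24.7 in 4F clones, and 5.67 and 5.81 in MEF. Emp3 was at 2.18 and 2.38 RPKM in ES cells, 10.8 and 14 in 3F+IL6 clones, 10.2 and 7.35 in 4F clones, and 214 and 204 in MEF, so it was far higher in fibroblasts than in any clone.

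Genes with the most similar profile were found by the root mean square difference of log2(RPKM + 1), centred per gene, over the 8 libraries. For Trp53 they were Pnp (0.0376), Nol6 (0.0384) and Emg1 (0.0421). Pnp, for instance, was at 56.4 and 58.4 RPKM in ES cells, 40.6 and 52.1 in 3F+IL6 clones, 37.6 and 39 in 4F clones, and 21.4 and 21.7 in MEF. Because Pnp was chosen by likeness over these same libraries, a gap between the 3F+IL6 clones like that of Trp53 follows from the choice. For Cdkn1a they were Copz2 (0.171), Vcam1 (0.171) and Anxa8 (0.206), all highest in MEF and lowest in ES cells. The libraries fall into 4 groups, so many genes share such an order.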

How the data were processed

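Poly-A RNA was sequenced as 50 bp reads in 8 libraries, per the labels' protocols and design text, and the submitters' processing notes name the build mm10. Aligner, counting tool and gene models were not given in the sources used here. The deposited values carry no unit in the file headers and were read as RPKM. Low values of single-transcript genes, multiplied by length, clustered at multiples of a step, which gave the estimated depth, but only 58.4% to 63.2% lay within 0.1 of a whole read, so whole reads could not be taken from them, and neither count tests nor counting intervals are used. A row that names no gene was dropped from each table.

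Genes that reached an RPKM of 1 in 2 or more samples were tested with limma 3.58.1 in R 4.3.3 on log2(RPKM + 1), with all 8 samples in 4 groups, trended empirical Bayes variance, no replicate block, 6 comparisons and a threshold of 0.05. The pseudocount understates changes of low genes. The labels call ES and MEF libraries biological replicates and the clones independent. The p-values rest on a spread per gene pooled over the 4 groups, so they do not measure the spread between clones alone. The median SE was 0.1025 both for 3F+IL6 against 4F and for MEF against ES. With only the 4 libraries compared in the fit, it was 0.134 and 0.0536. The fit was also run on simulated data that had the same spread per gene in all groups. That run cannot speak for groups of unequal spread, such as the 3F+IL6 and MEF groups here. Tables were handled in Python 3.11.15. The members, gene lists and tests were chosen with earlier results of these data known. The genes named are the 10 members, up to 4 genes with the smallest p from each list in the comparison described, any p53 regulator or relative, and the 3 most similar profiles; Wrap53, Plk3, Tigar, Hrk, Gadd45a, Emp1, the markers and the genes named as overlapping were also named, after their values were seen. A gene that this rule would name is not reported here. Older symbols were matched through RefSeq synonyms, and coordinates are mm10 from GENCODE M21. Alternatives were other pseudocounts, filters and scalings, smaller fits, a replicate block, leaving out each library and subtraction of a fibroblast share. The subtraction used markers with a mean of at least 5 RPKM in MEF.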

Additional observations from a re-analysis of the deposited data

How the results depend on the processing

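Of 1020 alternative values for the 10 genes in 6 comparisons, 973 kept their direction and side of the threshold, 26 were no longer called, 16 became called and 5 changed sign. Between the kinds of clone, the number of the 10 genes called was 1 and became 0 with a pseudocount of 0.1, without the filter, with the 4 clones fitted alone and with the replicate block, and ran from 0 to 9 when single libraries were left out. The 5 changes of sign were of differences near 0 that were not called. Bax between the kinds of clone was at −0.0347 with median centring and ran from −0.0761 to 0.085 without single libraries (main value 0.00), Sesn2 between the kinds of clone from −0.0551 to 0.325, and Perp between 4F and ES from −0.0334 to 0.0884. Over all genes, the 177 calls between the kinds of clone became 56 with a pseudocount of 0.1, 315 with quantile normalization, 12 with the 4 clones fitted alone and 36 with the replicate block, and 1 to 4782 without single libraries. In the other 5 comparisons the number of the 10 genes called stayed within 6 to 10 under every alternative. The call of lower Pmaip1 in MEF than in ES was lost with quantile normalization (−0.24). The cause of these changes was not tested.

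The replicate numbers name samples and do not pair them by any label. Deviations from the group means correlated at −0.06 to 0.21 across genes between same-numbered libraries, so the block fit is given here as a check, and among the 10 genes it ended the Pmaip1 call between the kinds of clone and no other call. Median centring and quantile normalization moved the median difference between MEF and ES from −0.27 to −0.18 and −0.15. The 2 samples per group limit the precision, and an exact permutation test on a single gene could not pass the threshold.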
